A study of Mus musculus with 6 samples.

Results

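The classical histone deacetylase genes Hdac1 to Hdac10 were followed in mouse regulatory T cells with and without KAP1. They were chosen by symbol, and the 10 genes were all found among the 37991 gene rows of the deposited count table. Histone deacetylases (HDACs) remove acetyl groups from lysines of histones and other proteins. Class I enzymes (Hdac1, Hdac2, Hdac3 and Hdac8) are mostly nuclear and act within co-repressor complexes such as NuRD, Sin3, CoREST and NCoR. Class IIa members (Hdac4, Hdac5, Hdac7 and Hdac9) have little catalytic activity of their own, bind transcription factors such as MEF2, and move out of the nucleus when they are phosphorylated and held by 14-3-3 proteins. Class IIb members (Hdac6 and Hdac10) are found largely in the cytoplasm. In regulatory T cells (Treg), the CD4+ cells that restrain immune responses through the transcription factor Foxp3, mouse cells without Hdac9 or Hdac6 are known for stronger suppressive activity. KAP1, the product of Trim28, is drawn to DNA by zinc finger proteins of the KRAB type and there recruits repressive enzymes, among them the NuRD deacetylase complex.

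RNA was sequenced from splenic Treg sorted as YFP+ cells after CD4+ T cells had been purified, in 3 libraries labelled KAP1 deficient and 3 labelled wild type and KAP1 sufficient. The strain background is written as C57BL/6 for the sufficient libraries and for deficient replicate 1, and as C57BL/7 and C57BL/8 for deficient replicates 2 and 3. The sources used here do not give the targeted allele, the driver of any Cre or YFP transgene, the age of the mice or whether animals were pooled. The 6 libraries held 9954344 to 10994745 counts. Replicates are not said to come from separate animals, so p-values measure the spread between these libraries, which may be technical.

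Trim28 went against the label in replicate 3 of both groups. It stood at 23.0, 18.6 and 231 CPM (counts scaled to a library total of 1000000) in the libraries labelled deficient 1, 2 and 3, against 244, 244 and 21.2 CPM in those labelled sufficient 1, 2 and 3. The HDAC genes are therefore described for all 6 libraries as labelled and for the 4 libraries without replicate 3 of either group, and no library was relabelled. In addition, the 3 libraries with low Trim28 (deficient 1, deficient 2 and sufficient 3) were set beside the 3 with high Trim28 (deficient 3, sufficient 1 and sufficient 2) as a description with no test, since that split uses a measured level. Treg markers were high in each library, with a summed level of 4283 to 4549 CPM over the 7 genes of that list.

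Hdac9 was the HDAC gene that varied most. Its highest and lowest libraries differed 13.3-fold in CPM, against 1.10-fold to 1.34-fold for each of the other 9 members. Hdac7 and Hdac3 were lower, and Hdac4 higher, in the deficient libraries when replicate 3 of either group was left out. The other 6 members did not pass the test in either comparison.

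**Figure D1:**
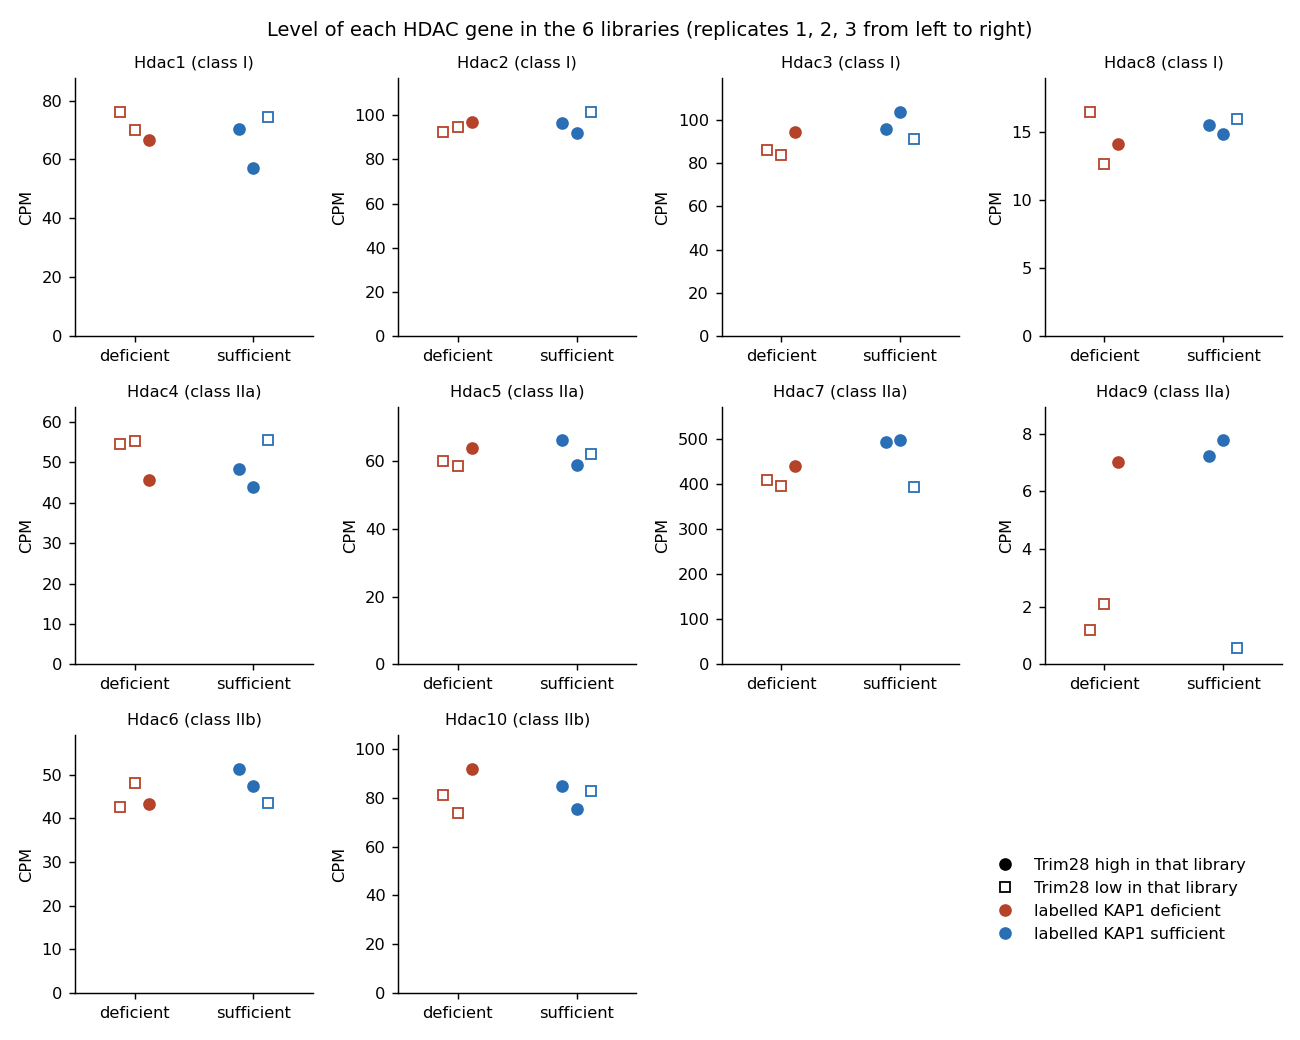
Level of each HDAC gene in CPM (vertical axis, from 0) in the libraries labelled KAP1 deficient (red) and KAP1 sufficient (blue), replicates 1 to 3 from left to right; open squares mark libraries in which Trim28 was low and filled circles those in which it was high. Hdac9 sits between 0.582 and 2.11 CPM in the 3 libraries with low Trim28 and between 7.00 and 7.76 CPM in the 3 with high Trim28.

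Within Treg the 10 genes were expressed at very different levels. CPM per kilobase of exon (an RPKM-like level, computed with the length of all annotated exons of a gene) was averaged over the 6 libraries. Hdac7 was the highest at 65.0, and ranged from 58.5 to 73.7. Hdac10 (24.2), Hdac3 (22.8), Hdac2 (21.4) and Hdac1 (20.04) followed, and the ranges of neighbours in that order overlapped. Hdac6 (7.91) and Hdac5 (7.00) came next with overlapping ranges, then Hdac4 (3.20) and Hdac8 (3.08), again with overlapping ranges. Hdac9 was the lowest at 0.294. The ranges did not overlap between Hdac7 and Hdac10, Hdac1 and Hdac6, Hdac5 and Hdac4, or Hdac8 and Hdac9.

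**Figure D2:**
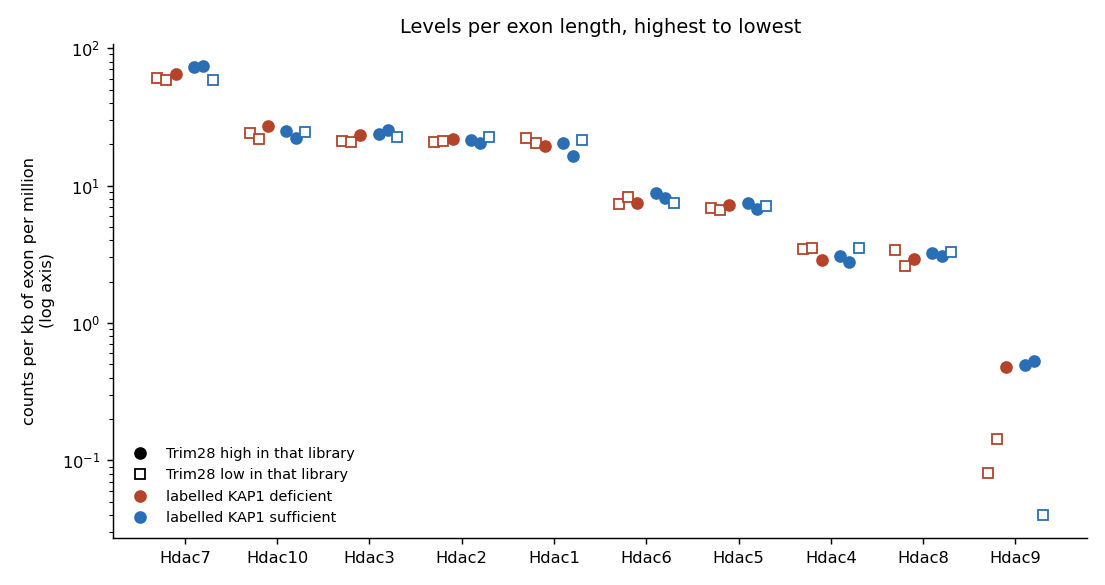
CPM per kilobase of exon (log axis) of the 10 HDAC genes, ordered by their mean over the 6 libraries; in each column the 3 deficient libraries stand left of the 3 sufficient ones, with open squares for low and filled circles for high Trim28. Hdac7 lies above every other member in each library, and Hdac9 below every other member.

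Hdac7 alone made up 34.2% to 41.0% of the summed HDAC level per exon length in a library and 84.7% to 88.0% of the class IIa sum. Hdac9 gave 0.0575% to 0.633% of the class IIa sum. The class IIa sum was 71.0, 69.1 and 75.9 in deficient libraries 1, 2 and 3, against 84.2, 83.7 and 69.1 in sufficient libraries 1, 2 and 3. It was thus lower in each library with low Trim28 than in any with high Trim28, as was Hdac7, which held most of it. Hdac4, of the same class, was higher with low Trim28. The class I sum stayed between 64.7 and 70.0, and the class IIb sum between 30.1 and 34.6. The class I sum and the shares of the summed HDAC level include Hdac1, whose count is uncertain as given below.

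Hdac9, which represses MEF2 targets and is widely studied as a brake on Treg function in mice, had few reads. It was counted 12, 21 and 77 times in deficient libraries 1, 2 and 3, which is 1.19, 2.11 and 7.00 CPM. In sufficient libraries 1, 2 and 3 it was counted 73, 79 and 6 times, which is 7.23, 7.76 and 0.582 CPM. The labelled groups overlapped, with deficient 3 among the high libraries and sufficient 3 the lowest of all. The libraries with low Trim28 and those with high Trim28 did not overlap. All 6 values were above the level of 3 counts, which corresponds to 0.273 to 0.301 CPM.

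Across all 6 libraries as labelled, the Hdac9 log2 fold change of deficient over sufficient was -0.58 ± 1.05 (SE, n = 3 each; adjusted p = 0.900, edgeR quasi-likelihood test). Without replicate 3 of either group it was -2.17 ± 0.28 (SE, n = 2 each; adjusted p = 7.02e-05, edgeR), a level 4.504-fold lower in the deficient libraries with a 95% interval of 2.996-fold to 6.77-fold. When 1 more library was left out, the 4-library value ran from -2.63 to -1.82 and passed the test each time. In bulk RNA, fewer cells that express Hdac9 and less Hdac9 RNA per cell cannot be told apart.

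The summed levels of 3 marker lists of other cells also separated the libraries with low Trim28 from those with high Trim28. The 8 genes of the B cell list summed to 544, 549 and 606 CPM in deficient libraries 1, 2 and 3 and to 640, 697 and 581 CPM in sufficient libraries 1, 2 and 3, and Ighm held 96.6% of that sum. Without Ighm the other 7 gave 16.0, 16.0 and 23.0 CPM in deficient and 23.7, 27.6 and 15.5 CPM in sufficient libraries. Within that list, Ms4a1 and Pax5 were at 0 or 1 count in each library. Other genes of the list were detected, and beside Ighm they reached up to 128 counts in a library. The 4 genes of the natural killer cell list summed to 12.003, 11.6 and 4.91 CPM in deficient and 7.32, 4.81 and 10.1 CPM in sufficient libraries, with Ncr1 at 0 throughout. Klrb1c held 72.4% of that sum, and without it the other 3 genes ran the other way, at 1.19, 1.91 and 2.73 CPM in deficient and 4.55, 2.26 and 1.36 CPM in sufficient libraries. The 5 genes of the endothelial and stromal list summed to 224, 209 and 228 CPM in deficient and 241, 248 and 199 CPM in sufficient libraries, with 99.2% of the sum in Pecam1, Kdr at 0 throughout and Cdh5 at 0 or 1 count. Without Pecam1 the other 4 gave 0.794, 1.005 and 2.73 CPM in deficient and 2.47, 2.46 and 0.777 CPM in sufficient libraries, lower with low Trim28 as Hdac9 was. The 7 genes of the Treg list summed to 4423, 4383 and 4506 CPM in deficient and 4485, 4549 and 4283 CPM in sufficient libraries, also without overlap between low and high Trim28. That separation was lost without the gene of the highest level, which held 21.7% of the sum. The rest gave 3423, 3412 and 3371 CPM in deficient and 3614, 3684 and 3358 CPM in sufficient libraries. The share of mitochondrial counts was 1.34%, 1.33% and 1.61% in deficient and 1.92%, 2.097% and 1.41% in sufficient libraries. The part of these measures in the Hdac9 result was not tested.

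Hdac9 lies on chromosome 12 from 34047580 to 34917095 (GRCm38, minus strand), and none of its exon bases is shared with another annotated gene. Of the protein-coding neighbours, Twist1 (0 or 1 count per library), Ferd3l and Prps1l1 (0 counts in each library) were at or below 3 counts. Twistnb, 606 kb away on the lower side, had a 4-library log2 fold change of 0.19 ± 0.10 (SE; adjusted p = 0.199, edgeR). On the higher side, Snx13, a sorting nexin 130 kb away, had 51.8, 54.5 and 75.1 CPM in deficient and 61.7, 66.7 and 49.9 CPM in sufficient libraries. Its 4-library log2 fold change was -0.27 ± 0.07 (SE, adjusted p = 0.0231, edgeR), and with all 6 libraries it was 0.02 (adjusted p = 0.97498). Ahr, the aryl hydrocarbon receptor, 581 kb away, had 25.1, 25.9 and 34.6 CPM in deficient and 31.6, 36.1 and 25.2 CPM in sufficient libraries, with a 4-library log2 fold change of -0.40 ± 0.10 (SE, adjusted p = 0.0111, edgeR) and a 6-library value of -0.12 (adjusted p = 0.853). Both genes were lower in every library with low Trim28 than in any with high Trim28, as were 14.5% of all genes tested.

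The Hdac9 start regions are shown because this gene varied most among the members and because class IIa enzymes act through MEF2. The RefSeq promoter table for GRCm38.p6 held 11 windows for 7 of the 10 members, and none for Hdac1, Hdac3 and Hdac10. The 250 bases upstream of each start were searched on both strands for the MEF2 core TATTTTTA (TAAAAATA on the other strand). That core was present in 2.45% of 32851 windows of the same length. Among members it was found once in Hdac5 and once in 1 of the 2 Hdac9 windows, and it is set in capitals in the sequences, which read 5′ to 3′ on the minus strand.

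Hdac9, start inside the gene, chr12:34528890-34529139: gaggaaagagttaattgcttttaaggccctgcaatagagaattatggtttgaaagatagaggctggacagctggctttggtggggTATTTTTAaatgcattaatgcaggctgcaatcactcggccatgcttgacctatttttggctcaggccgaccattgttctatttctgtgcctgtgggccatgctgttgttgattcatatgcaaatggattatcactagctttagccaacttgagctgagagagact
Hdac9, outermost start, chr12:34917096-34917345: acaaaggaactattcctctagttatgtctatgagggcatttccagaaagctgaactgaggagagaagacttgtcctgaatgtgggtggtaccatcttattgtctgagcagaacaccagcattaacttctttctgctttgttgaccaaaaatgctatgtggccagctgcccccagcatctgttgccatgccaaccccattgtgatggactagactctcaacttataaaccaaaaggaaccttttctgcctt
Hdac5, chr11:102230173-102230422: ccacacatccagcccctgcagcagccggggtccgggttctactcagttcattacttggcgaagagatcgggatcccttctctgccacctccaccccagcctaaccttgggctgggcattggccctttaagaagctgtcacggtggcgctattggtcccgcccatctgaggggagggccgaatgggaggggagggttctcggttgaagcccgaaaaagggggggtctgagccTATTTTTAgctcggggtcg

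In the Hdac9 window the core begins 165 bases before the start, and in the Hdac5 window 19 bases before it. The 2 Hdac9 windows held 2 and 0 CpG dinucleotides, with a GC content of 43.6% and 44.4%. Windows of the other 6 members with an entry held 5 to 27 CpG, and the median over the whole table was 6 CpG and 52.4% GC. A forkhead motif (TGTTTAC or GTAAACA, in 3.17% of all windows) and a STAT motif (TTCNNNGAA, in 7.02%) were found in Hdac7 windows and in no window of another member. Hdac7 had more windows than any other member, so more sequence was searched for it. A match of letters is a description and not a measured binding site.

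The 6 genes whose values over the 6 libraries were closest to those of Hdac9 were named by the root-mean-square difference of centred log2 CPM, among 10661 genes. They were Galnt14 (0.36), a glycosyltransferase, Tmprss13 (0.38), a membrane serine protease, Slc12a5 (0.38), a potassium chloride co-transporter, Slc1a5 (0.53), a glutamine transporter, Pglyrp1 (0.55), a peptidoglycan recognition protein, and Ccdc61 (0.58). Trim28 itself was at 0.72, and the other HDAC genes were farther away, from 1.26 for Hdac7 to 1.502 for Hdac4. Galnt14, Tmprss13 and Slc12a5 were counted at most 43, 38 and 27 times in a library, so their values carry a large counting error. Tmprss13 and Slc12a5 had 1 count in sufficient 3, below the level of 3 counts. With low Trim28, Slc12a5 had 0.097 to 0.496 CPM, Tmprss13 0.097 to 0.804 CPM and Galnt14 0.388 to 1.31 CPM. Each of these genes met the mean CPM of at least 1 through the libraries with high Trim28. Slc1a5 had far more reads, with 93.9, 91.0 and 435 CPM in deficient and 436, 424 and 93.0 CPM in sufficient libraries. Slc1a5, Pglyrp1 and Ccdc61 lie on chromosome 7, as Trim28 does, and start at 16781340, 18871331 and 18890883, against 12999114 for Trim28.

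**Figure D3:**
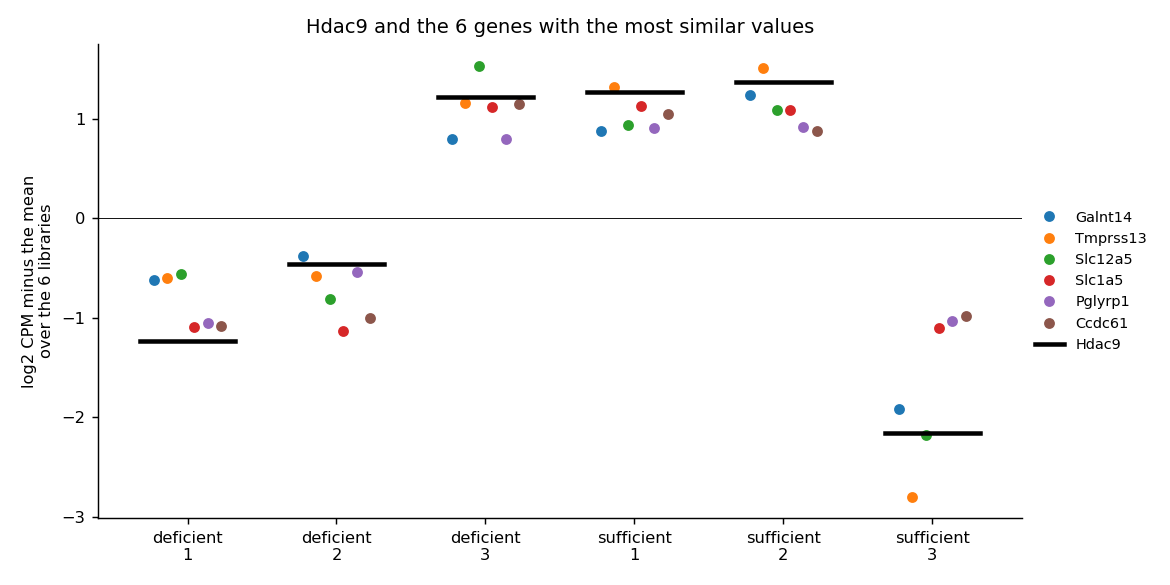
Log2 CPM minus the mean over the 6 libraries (vertical axis) for Hdac9 (black bars) and the 6 genes with the most similar values (coloured points), in the libraries labelled deficient 1 to 3 and sufficient 1 to 3. Hdac9 and the 6 genes lie above 0 in deficient 3, sufficient 1 and sufficient 2 and below 0 in the other 3 libraries.

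Of the 10 members, 4 passed the test in the 4-library comparison, 3 lower and 1 higher in the deficient libraries. Over all genes tested there, 17.4% passed, 7.39% lower and 9.96% higher. In the comparison of all 6 libraries none of the 10 passed, against 0.0165% of all genes (edgeR at an adjusted p of 0.05). None of the 10 had an unadjusted p under 0.05 there, and DESeq2 also called 0. Apart from Hdac9, the log2 fold changes of the 6-library comparison ran from -0.15 for Hdac7 to 0.07 for Hdac1, with adjusted p from 0.654 to 0.963 (edgeR). Between libraries with low and high Trim28, the CPM ranges of 4 members did not overlap, 3 of them lower and 1 higher with low Trim28. Over all genes tested 26.4% did not overlap, 14.5% lower and 11.9% higher with low Trim28. By label the ranges of all 10 overlapped, where those of 12.8% of all genes did not.

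**Figure D4:**
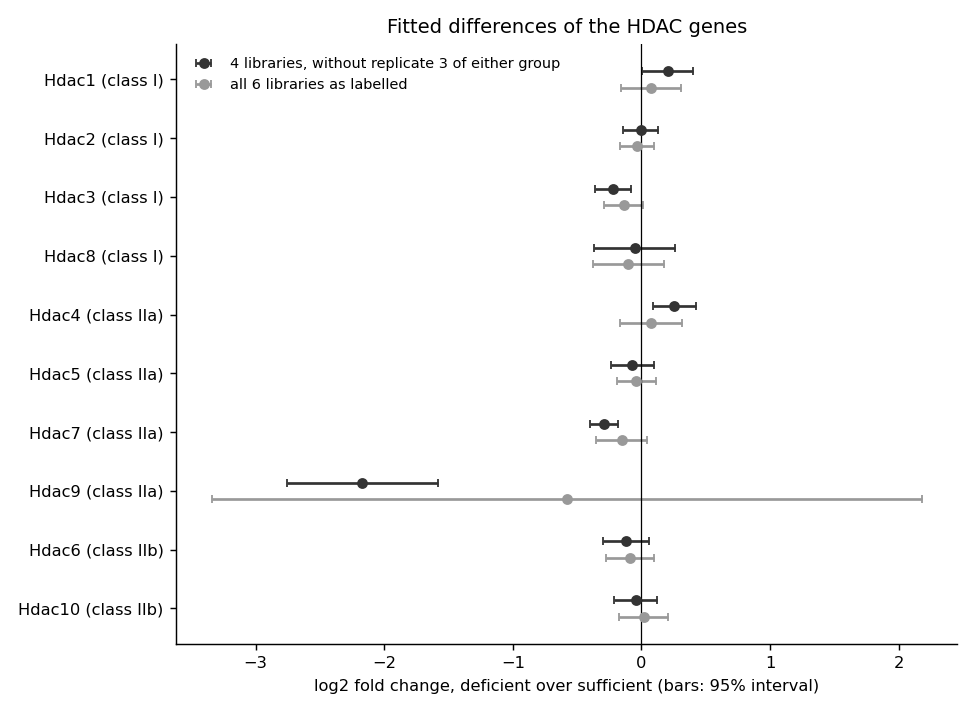
Log2 fold change of deficient over sufficient (horizontal axis) for each HDAC gene with its 95% interval, from the 4 libraries without replicate 3 of either group (black) and from all 6 libraries as labelled (grey). Hdac9 has the largest difference in the 4-library fit, -2.17, and the widest interval in the 6-library fit, -3.34 to 2.18.

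In class I, Hdac3 was the member that passed. Hdac3 is the catalytic subunit of the NCoR co-repressor complexes, and its gene is on chromosome 18. It had 86.2, 83.7 and 94.4 CPM in deficient libraries 1, 2 and 3 against 95.7, 104 and 91.3 CPM in sufficient libraries 1, 2 and 3. The 3 libraries with low Trim28 were the 3 lowest. Its 4-library log2 fold change was -0.22 ± 0.07 (SE, n = 2 each; adjusted p = 0.0284, edgeR), or 1.17-fold lower. With all 6 libraries it was -0.14 ± 0.07 (SE, n = 3 each; adjusted p = 0.654, edgeR). The call was lost with DESeq2 (adjusted p = 0.210) and without deficient replicate 2 (adjusted p = 0.151) or sufficient replicate 2 (adjusted p = 0.151).

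Hdac1 and Hdac2, the paired catalytic subunits of NuRD, Sin3 and CoREST, did not pass. Hdac2 was the steadiest member, at 92.4, 94.5 and 96.9 CPM in deficient and 96.4, 91.9 and 101 CPM in sufficient libraries. Its 4-library log2 fold change was -0.01 with a 95% interval of -0.14 to 0.13, and with all 6 libraries it was -0.03 (adjusted p = 0.895, edgeR). Hdac1 had 76.1, 69.9 and 66.6 CPM in deficient and 70.4, 57.0 and 74.3 CPM in sufficient libraries, and overlapped between the groups and between the libraries with low and high Trim28. Its 4-library log2 fold change was 0.20 ± 0.09 (SE; adjusted p = 0.156, edgeR), and passed without deficient replicate 2 (0.27, adjusted p = 0.0423) or without sufficient replicate 1 (0.37, adjusted p = 0.0101). With all 6 libraries it was 0.07 (adjusted p = 0.863, edgeR).

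The Hdac1 count has a second uncertainty. Of the 50-base stretches of its annotated transcripts, 35.5% also occur in other genes and 31.7% in Gm10093, a processed pseudogene on chromosome 17 from 78491582 to 78493025. Gm10093 was given 847, 784 and 792 counts in deficient libraries 1, 2 and 3 and 798, 790 and 820 in sufficient libraries 1, 2 and 3. Hdac1 itself was given 767, 696 and 732 counts in deficient and 711, 580 and 765 in sufficient libraries. Reads of the shared stretches cannot be assigned to one of the genes, so the level of Hdac1, and its place in the order, is uncertain. The class I sum and the shares of the summed HDAC level carry the same uncertainty. Summed, Hdac1 and Gm10093 had 160, 149 and 139 CPM in deficient and 149, 135 and 154 CPM in sufficient libraries, which overlapped. Hdac2, Hdac3, Hdac6, Hdac7, Hdac8, Hdac9 and Hdac10 shared no such stretch with another gene.

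Hdac8, a class I enzyme known for deacetylating the cohesin subunit Smc3, was the class I gene with the lowest level. It had 16.5, 12.7 and 14.1 CPM in deficient and 15.5, 14.8 and 15.9 CPM in sufficient libraries. The groups overlapped, and the 4-library log2 fold change was -0.05 ± 0.15 (SE; adjusted p = 0.848, edgeR), against -0.10 with all 6 libraries (adjusted p = 0.839).

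In class IIa, 3 of 4 members passed in the 4-library comparison, where 17.4% of all genes tested did. Hdac9 and Hdac7 were lower and also passed with DESeq2, while Hdac4 was higher and did not. Hdac7, known for its part in thymocyte selection and for nuclear export after T cell receptor signals, lies on chromosome 15 from 97792664 to 97844502 on the minus strand. It had 410, 397 and 441 CPM in deficient libraries 1, 2 and 3 against 494, 498 and 395 CPM in sufficient libraries 1, 2 and 3. Libraries with low Trim28 held 395 to 410 CPM and those with high Trim28 441 to 498 CPM, with deficient 3 nearest to the low ones. The 4-library log2 fold change was -0.29 ± 0.05 (SE, n = 2 each; adjusted p = 0.00095, edgeR), or 1.22-fold lower with a 95% interval of 1.14-fold to 1.32-fold. The call held with DESeq2 and when any 1 of the 4 libraries was left out. With all 6 libraries the value was -0.15 ± 0.09 (SE, n = 3 each; adjusted p = 0.657, edgeR), and without sufficient replicate 3 alone it was -0.25 (adjusted p = 0.0193).

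Hdac4, on chromosome 1 from 91928779 to 92195699 on the minus strand, was the member that was higher. It had 54.6, 55.3 and 45.7 CPM in deficient libraries 1, 2 and 3 and 48.4, 43.9 and 55.4 CPM in sufficient libraries 1, 2 and 3. The 3 libraries with low Trim28 lay between 54.6 and 55.4 CPM, above the other 3. The 4-library log2 fold change was 0.26 ± 0.08 (SE, n = 2 each; adjusted p = 0.0350, edgeR), or 1.19-fold higher. With all 6 libraries it was 0.07 ± 0.11 (SE, n = 3 each; adjusted p = 0.872, edgeR). The call was lost with DESeq2 (adjusted p = 0.316), with upper-quartile factors (adjusted p = 0.0554) and without deficient replicate 1 (adjusted p = 0.0601), deficient replicate 2 (adjusted p = 0.0779) or sufficient replicate 2 (adjusted p = 0.234). Of its annotated exon bases 22.4% overlap Gm26720, a long non-coding RNA gene on the opposite strand, and the library kit does not mark strand, so reads of the overlap cannot be told apart.

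Hdac5, the class IIa member closest to Hdac4 in its domain layout and a target of the same kinases, had 60.0, 58.4 and 63.8 CPM in deficient and 66.0, 58.8 and 61.9 CPM in sufficient libraries. These overlapped, and its 4-library log2 fold change was -0.07 ± 0.08 (SE; adjusted p = 0.588, edgeR). In class IIb, Hdac6, the tubulin deacetylase, had 42.6, 48.0 and 43.3 CPM in deficient and 51.3, 47.3 and 43.6 CPM in sufficient libraries. Its 4-library log2 fold change was -0.12 ± 0.08 (SE; adjusted p = 0.377, edgeR). Hdac10, a polyamine deacetylase, had 81.0, 73.9 and 91.9 CPM in deficient and 85.0, 75.3 and 82.8 CPM in sufficient libraries, with a 4-library log2 fold change of -0.04 ± 0.08 (SE; adjusted p = 0.760, edgeR). With all 6 libraries the values were -0.04 for Hdac5 (adjusted p = 0.891), -0.09 for Hdac6 (adjusted p = 0.779) and 0.02 for Hdac10 (adjusted p = 0.963, edgeR). Over the 6 members that did not pass, the 95% intervals of the 4-library values reached from -0.37 for Hdac8 to 0.40 for Hdac1.

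The authors' deposited table gave an adjusted p under 0.05 to 3 of the 10 members. Over all genes it did so for 829 of the 12072 with an adjusted p. In the authors' deposited table the log2 fold change was 0.96 for Hdac9 (adjusted p = 1.61e-11), 0.23 for Hdac7 (adjusted p = 0.00582) and -0.26 for Hdac4 (adjusted p = 0.0354). The q-values given there were 1.61e-09 for Hdac9, 0.153 for Hdac7 and 0.588 for Hdac4, so by that measure only Hdac9 was under 0.05. The header of that table does not name the direction. Trim28 stands at 3.11 in the authors' deposited table, so positive values were read as higher in sufficient cells. The sources used here do not say which libraries entered that table. The mean level of Hdac1 in the authors' deposited table was 2702, which is 3.81 times the mean of the deposited counts, 708.5, while the ratio was 0.897 to 1.10 for the other 9 members.

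Genes of the complexes and pathways around the HDACs were counted from lists. In the comparison of all 6 libraries, 0 of the 100 tested genes in the other 9 lists passed with edgeR or with DESeq2, and 12 had an unadjusted p under 0.05. In the 4 libraries 19 of the 100 passed with edgeR, a share near the 17.4% of all genes, and 5 with DESeq2, all of them among the 19, with Kat2b, Ncor1, Rbbp4 and Sap130 in both. The counts that follow are from edgeR and the 4 libraries, where the median log2 fold change over all genes was -0.0021.

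Among the other deacetylases, Hdac11 and the sirtuins Sirt1 to Sirt7, 1 of 8 passed. Sirt1, an NAD-dependent deacetylase, was higher by 0.25 ± 0.08 on the log2 scale (SE; adjusted p = 0.0436, edgeR), and its levels overlapped between libraries with low and high Trim28. Hdac11, the class IV enzyme, had 5.16, 4.02 and 5.09 CPM in deficient and 4.06, 4.62 and 5.05 CPM in sufficient libraries, with a log2 fold change of 0.09 ± 0.24 (SE; adjusted p = 0.847, edgeR).

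Of the class I complexes, NuRD had 12 genes tested, of which 1 was higher and 2 were lower, with a median of -0.07. Rbbp4, a histone chaperone that NuRD and Sin3 share, was higher by 0.31 ± 0.05 (adjusted p = 0.0006). Gatad2b fell by 0.22 and Mta3 fell by 0.21. Both were lower in every library with low Trim28 than in any with high Trim28, as were 14.5% of all genes tested. The levels of Rbbp4 overlapped between those libraries. Sin3 had 15 genes tested and 1 passed, the subunit Sap130, which fell by 0.33 and overlapped by Trim28 level. In CoREST 3 of 10 passed. The scaffold Rcor3 was higher by 0.37 and its relative Rcor1 by 0.20, while Zmym3 fell by 0.27. By Trim28 level Rcor1 overlapped, while Rcor3 and Zmym3 did not.

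The NCoR list, the complexes in which Hdac3 acts, had 4 of 7 genes past the test, 3 lower and 1 higher, with a median of -0.10. The co-repressor Ncor1 had 574, 544 and 572 CPM in deficient and 658, 643 and 547 CPM in sufficient libraries, and fell by 0.21 ± 0.05 on the log2 scale (SE; adjusted p = 0.0108, edgeR). The subunit Gps2 fell by 0.21, and Zbtb33, the DNA-binding protein Kaiso, was higher by 0.33. The levels of Ncor1, Gps2 and Zbtb33 overlapped between libraries with low and high Trim28.

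Among partners of class IIa enzymes, which include the MEF2 and RUNX factors, 1 of 11 passed, Runx1, a Foxp3 partner, higher by 0.20. Of kinases and 14-3-3 proteins that govern class IIa export, 1 of 19 passed, the protein kinase Prkd3, higher by 0.28. Of the enzymes that add acetyl groups, 4 of 14 passed, 2 in each direction. Kat2b, also called PCAF, was higher by 0.40 and Kat8, which acetylates histone H4, by 0.33. Crebbp, the CBP co-activator, fell by 0.23, and Naa60 fell by 0.23. The adjusted p of these genes lay between 0.0084 and 0.0216 (edgeR).

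**Figure D5:**
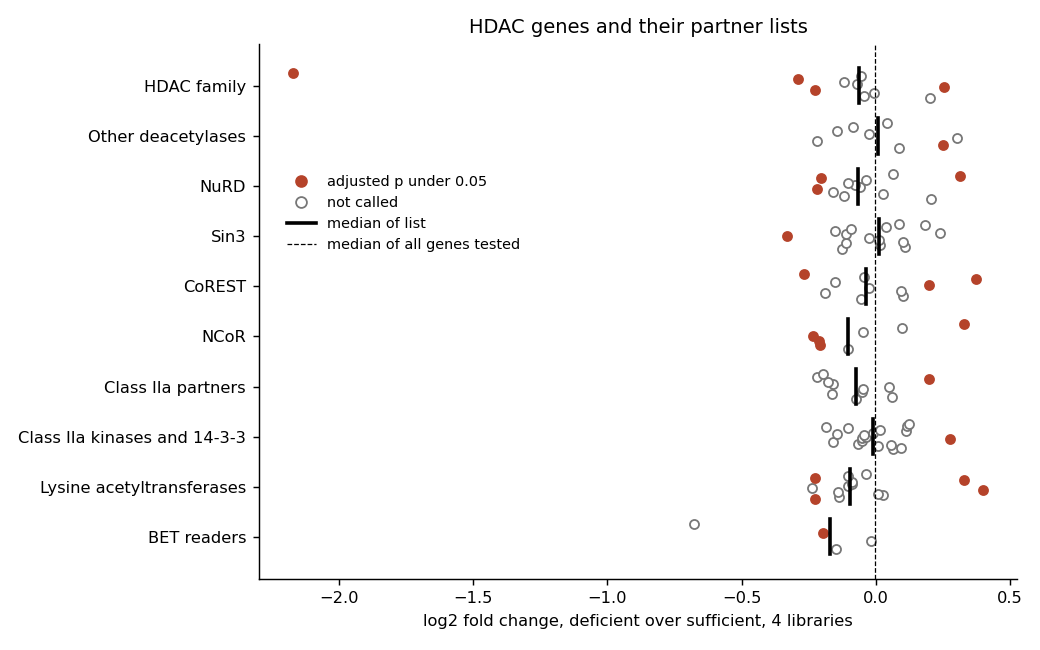
Log2 fold change of deficient over sufficient in the 4 libraries without replicate 3 of either group (horizontal axis) for the HDAC genes and 9 lists around them, 1 row each; filled points passed the test, open points did not, thick bars are list medians and the dashed line is the median of all genes tested. Hdac9 lies at -2.17, far to the left of every other listed gene.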

How the data were processed

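Libraries were made with a TruSeq kit that does not mark strand, per the labels' protocols. The submitters' processing notes name DESeq2, HTSeq 0.7.2, TopHat2 2.1.1 and mm10 without saying what each did. The authors deposited raw counts per Ensembl gene. Per the file headers, their own comparison, also deposited, lists p-values, q-values, a test score, log2 fold changes and mean levels per gene. Symbols were matched for 32919 of 37991 gene rows, and rows without one held 0.603% of counts.

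Counts were tested with edgeR 4.0.16 (R 4.3.3; TMM factors, filterByExpr, robust quasi-likelihood fit) over all genes, with Benjamini-Hochberg adjustment and a call at an adjusted p under 0.05. The fit was tested on simulated data. CPM used library totals. Levels per length used GRCm38 exon annotation. DESeq2 1.42.0, other normalizations, no filter, a non-robust fit, a replicate block and leaving out each library were alternatives. Sequences are from RefSeq (GRCm38.p6).

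Members, lists and tests were chosen with earlier results of these data known. Named genes were the members, Hdac11, Trim28, up to 4 called genes per list with the smallest adjusted p, the 6 genes most like Hdac9 (mean CPM of at least 1, prior count 1) and its 3 nearest protein-coding neighbours on each side; a few genes that this rule or a marker list names are not reported here. Gm10093 and Gm26720 were named after their overlap with members was seen. Marker lists of 8 cell types were summed. No pair of libraries matched within sampling noise. The chi-square per degree of freedom, a measure of how far a pair differs, was lowest between deficient 1 and sufficient 3, at 2.52. It was 2.94 between sufficient 1 and sufficient 2. Deficient 3 stood farther from both, at 7.66 from sufficient 1 and 8.13 from sufficient 2. It stood farther still from deficient 1 (9.19), deficient 2 (9.17) and sufficient 3 (9.00). Sufficient 3 was at 12.2 from sufficient 1 and 14.3 from sufficient 2.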

Additional observations from a re-analysis of the deposited data

How the results depend on the processing

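Hdac9 and Hdac7 kept their direction and their call in the 4-library comparison under every alternative run. With a replicate block the Hdac9 value was -2.18 in the 4-library comparison and -0.63 with all 6 libraries, where it stayed uncalled. Deviations of same-numbered libraries from the mean of their labelled group correlated at -0.35, -0.28 and -0.60 with 6 libraries. Such values cannot show whether numbers pair, because replicate 3 of both groups goes against its label in Trim28. In the 4 libraries, the difference of replicate 1 minus 2 correlated at -0.0102 between the groups. The labels do not state a pairing, and the block is given here and not beside the results. Of all genes, 2 were called with the 6 libraries as labelled, and 6 with DESeq2, 1 with a non-robust fit, 0 with the replicate block and 1 to 807 when a library was left out, with 807 without sufficient replicate 3. At an unadjusted p under 0.05 there were 944. Of the HDAC members 0 were called there, and 0 to 1 when a library was left out. In the 4-library comparison 2114 genes were called, 935 with DESeq2, 2359 with the replicate block and 1632 to 1717 when a library was left out. The 4 members called became 2 with DESeq2 (Hdac7 and Hdac9), 3 with upper-quartile factors, and 2 to 5 when a library was left out, the lowest being without sufficient replicate 2. For these shifts the cause was not tested.

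Some members that did not pass changed sign when a library was left out. With 6 libraries the log2 fold change ran from -0.0353 to 0.153 for Hdac1, -0.0708 to 0.00516 for Hdac2, -0.00802 to 0.166 for Hdac4, -0.0814 to 0.00735 for Hdac5, -0.0601 to 0.0928 for Hdac10 and -0.0223 to 0.164 for Hdac11. With 4 libraries it ran from -0.0467 to 0.0336 for Hdac2, -0.159 to 0.0189 for Hdac5, -0.260 to 0.126 for Hdac8, -0.135 to 0.0511 for Hdac10 and -0.107 to 0.259 for Hdac11. The 6-library Hdac9 value ran from -1.64, without deficient replicate 3, to -0.18 and never passed. Fits of 3 libraries leave a group with 1 library, which is assumed to vary like the other group. With at most 79 Hdac9 counts per library, counting error is largest for this member.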
